A study of Danio rerio with 4 samples.

Results

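Cytochrome P450 enzymes are haem proteins that insert an oxygen atom into steroids, sterols, vitamins, fatty acids and foreign chemicals. They are grouped into numbered families: some carry out fixed steps of steroid, bile acid or vitamin D metabolism, and others, chiefly families 1 to 3, act on many drugs and toxicants. Microsomal members take electrons from P450 reductase and mitochondrial members from ferredoxin. The values below are array features whose zebrafish gene symbol in the authors' annotation begins with cyp and a digit in either case, or, where that symbol was empty, whose human ortholog name does. The cyp26 genes, which degrade retinoic acid, were left out with 4 features.

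By this rule 103 of 37176 features were P450 features, 31 through the zebrafish symbol and 72 through the human ortholog name. After names were updated through a RefSeq gene table, 53 of them carried 41 zebrafish cyp names and 50 had a human ortholog name only. A feature of the second kind is called here by that human name, for example a CYP24A1 feature, and which zebrafish gene copy it measures is not given. Family 2 held 47 features, family 4 held 8, family 27 held 7, family 3 held 6, family 1 held 5, and families 8 and 46 held 4 each. Families 24, 7, 20 and 39 held 3, 2, 2 and 1, and 2 features had ortholog names of several genes that fitted no single family. The steroid hormone families 11, 17 and 19, with 4, 5 and 3 features, are given apart.

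RNA of whole zebrafish embryos was compared between Tg(hsp70-hRASG12V) embryos, called transgenic here, and wild-type embryos, with 2 Cy3-labelled arrays each. The transgene is a mutant human RAS gene under a heat-inducible hsp70 promoter. Transgenic and wild-type embryos alike received a heat shock of 37 °C lasting 1 h, begun 24 hours after fertilisation, and were then held at 28.5 °C until collection at 30 hours. Every value therefore describes heat-shocked embryos. Each array held RNA of a pool of 50 embryos by the design text, which calls the transgenic embryos heterogeneous and speaks of 3 replicates. Of these, 2 per genotype were analysed. The titles tag the arrays ras or ab and do not say whether the genotypes shared background or clutch, which cannot be told apart from the transgene. The transgene's own expression was not checked, because none of the features could be assigned to human RAS.

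Array values were log2 expression values, with medians of 9.62 and 9.61 in the transgenic arrays and 9.50 and 9.55 in the wild-type arrays. The transgenic pair of arrays correlated over all features at a Pearson's r of 0.996 and the wild-type pair at 0.988, while pairs of opposite genotype gave 0.966 to 0.973. P450 features differed by a median of 0.16 between the transgenic arrays and 0.24 between the wild-type arrays. The files give no detection call. A group mean under 7.05, the lowest 25th percentile of the 4 arrays, is called low signal here, because an unknown share of it is background. Of the 103 features, 44 had low signal in both genotypes and 46 in neither. With 2 arrays per genotype, the number of arrays limits the precision. The fits below use limma over all features with Benjamini-Hochberg adjustment and call a feature at an adjusted p under 0.05. A feature is said to rise or fall only where it passed.

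The question put by the design is how the transgene changed the transcriptome. Of the 103 P450 features, 13 rose and 13 fell, 26 in all, and 14 of these differed at least 2-fold, 9 higher and 5 lower. Of all 37176 features, 3809 were called at that size, 2578 higher and 1231 lower. Among all features 17.6% were called, 10.3% higher and 7.28% lower, against 25.2% of the P450 features, 12.6% in each direction. Several of these features can measure 1 gene. With the feature of highest signal standing for each of the 41 zebrafish cyp names, 1 rose and 6 fell. The called share was then 17.1%, near that of all features, with 2.44% higher and 14.6% lower. The 50 features with a human ortholog name only are not in this count. The median log2 fold change, transgenic minus wild type, was -0.01 over the P450 features and 0.01 over all features. In 68 P450 features (66%) both transgenic arrays lay on one side of both wild-type arrays, a share near the 67.6% of all features. Among the 103 features, the falls of 2-fold or more were all in the steroid hormone families 11 and 17. The rises of that size were in families 3, 4, 8 and 24. The placing of the falls depends on the symbol rule. P450 features outside it, given below, held 8 falls of that size, in families 2, 27 and 39. For the 103 features, quantile normalization gave 10 higher and 16 lower, and median centring 10 and 17. Leaving out either transgenic array ended every call, with 0 of all 37176 features called by limma. With all arrays, 45 of the 103 P450 features had an unadjusted limma p under 0.05, where 13726 of all 37176 features did. With 1 array left out, its genotype has a single array, which is assumed to vary like the other genotype's pair.

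**Figure D1:**
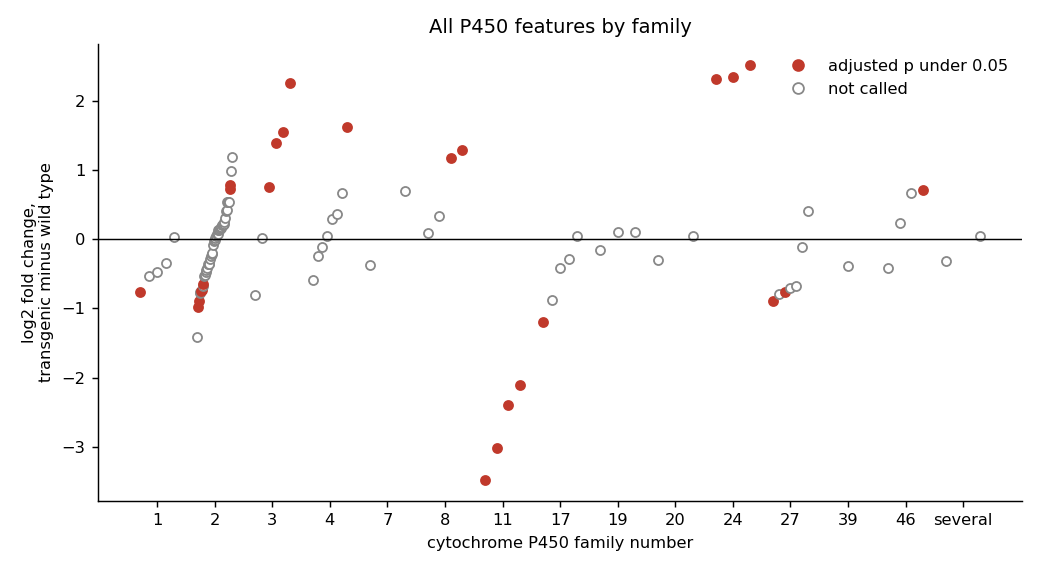
Log2 fold change (transgenic minus wild type) of each of the 103 P450 features, placed by family number, with filled points where limma's adjusted p was under 0.05. The 4 family 11 features lie lowest, between -3.48 and -2.10, and the 3 family 24 features lie between 2.32 and 2.52.

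The gene for the enzyme that opens steroid hormone synthesis was lower in transgenic embryos. All 4 features of cyp11a1.1, which encodes the mitochondrial enzyme that cleaves the side chain of cholesterol to make pregnenolone, fell, with log2 fold changes from -3.48 to -2.10. The feature with the highest signal read 6.88 and 7.31 (log2) in the transgenic arrays, against 9.38 and 9.60 in the wild-type arrays. Its log2 fold change was -2.40 ± 0.21 (SE, n = 2 arrays per genotype; limma adjusted p = 0.00934), a 5.26-fold difference.

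The second cyp11a1.1 feature had 5.01 and 5.17 in the transgenic arrays, against 7.15 and 7.22 in the wild-type arrays. The third had 3.89 and 4.77 in the transgenic arrays, against 7.03 and 7.67 in the wild-type arrays. The fourth had 2.69 and 3.29 in the transgenic arrays, against 6.45 and 6.49 in the wild-type arrays. In each of the 4 features both transgenic arrays lay below both wild-type arrays, as in 12314 of all 37176 features. The log2 fold changes of the other 3 were -2.10 ± 0.14, -3.02 ± 0.37 and -3.48 ± 0.24. Of the 4, 3 had low signal in the transgenic arrays, the fourth feature also in the wild-type arrays, so the size of those falls is uncertain. On the log2(value + 50) scale, which damps low signal, the same 3 still fell, with log2 fold changes of -1.22, -1.60 and -1.25. The file names all 4 features cyp11a1, an older symbol that the gene table gives to cyp11a1.1. A near copy, cyp11a1.2, has a feature of its own under a numbered symbol outside the rule. That feature had 6.24 and 6.67 in the transgenic arrays, against 7.26 and 7.56 in the wild-type arrays, and fell by 0.96 (SE 0.22, limma adjusted p = 0.045). Its signal was low in the transgenic arrays, so the size of that fall is uncertain.

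The gene for the next P450 of the pathway, cyp17a1, whose enzyme hydroxylates pregnenolone and progesterone and is needed for cortisol and sex steroids, fell in 1 of its 5 features. That feature, the only one under the lower-case symbol, read 9.58 and 9.37 in the transgenic arrays, against 10.61 and 10.74 in the wild-type arrays. Its log2 fold change was -1.20 ± 0.16 (n = 2 arrays per genotype; limma adjusted p = 0.0159), with no overlap of the genotypes. The other 4 carry the symbol in capitals, had low signal in both genotypes and did not pass. The one with the highest signal among them had 6.76 and 6.92 in the transgenic arrays, against 6.11 and 7.50 in the wild-type arrays. In the next, the transgenic arrays gave 5.36 and 5.91, against 5.22 and 6.63 in the wild-type arrays. Another gave 4.89 and 5.30 in the transgenic arrays, against 5.04 and 6.90 in the wild-type arrays. In these 3 features the wild-type arrays lay wider apart than the genotype means, and at least 1 transgenic array lay between them. The last gave 2.76 and 3.01 in the transgenic arrays, against 3.05 and 3.54 in the wild-type arrays. Their log2 fold changes were 0.04 ± 0.46, -0.29 ± 0.50, -0.88 ± 0.62 and -0.41 ± 0.22, with adjusted p values from 0.24 to 0.965. Without wild-type replicate 1, 7 steroid family features fell in place of 5, one of them the second feature, which then stood at -0.66. Without wild-type replicate 2 the same feature passed in the other direction, at 0.73. In both cases the spread came from the 2 transgenic arrays alone, with the lone wild-type array assumed to vary like them, so these calls leave out the wide gap between the wild-type arrays.

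The aromatase genes, whose enzymes turn androgens into oestrogens, had low signal in every feature. The ovarian gene cyp19a1a had 4.63 and 4.11 in the transgenic arrays, against 4.19 and 4.33 in the wild-type arrays, in 1 feature. Its other feature had 3.34 and 3.75 in the transgenic arrays, against 3.37 and 3.51 in the wild-type arrays. The brain gene cyp19a1b had 5.58 and 5.54 in the transgenic arrays, against 5.72 and 5.71 in the wild-type arrays. None of the 3 passed in limma, with log2 fold changes of 0.11 ± 0.22, 0.11 ± 0.19 and -0.15 ± 0.14 and 0 of 3 at an unadjusted p under 0.05. At such signal a difference may not be detectable.

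**Figure D2:**
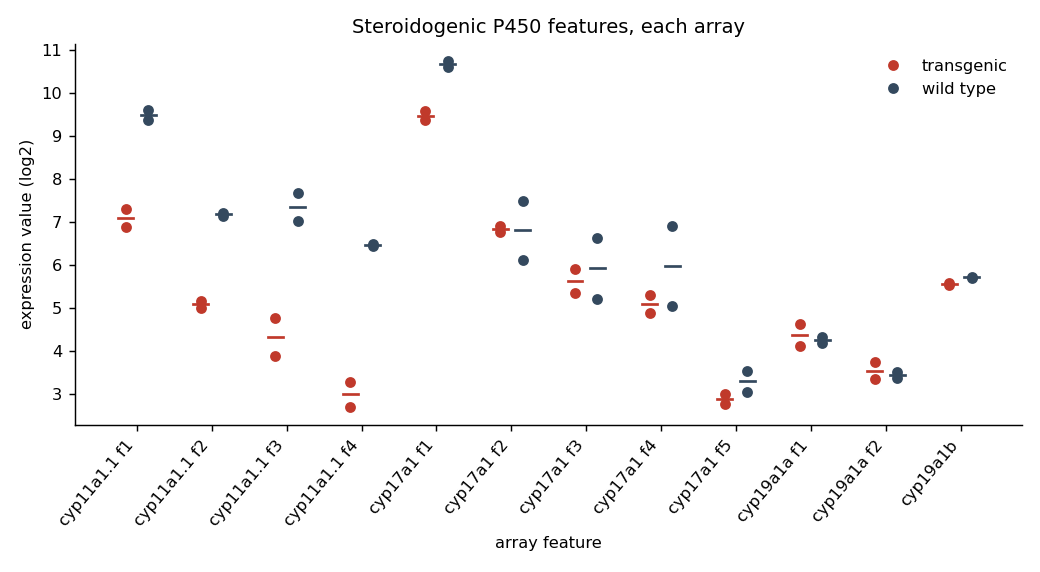
Log2 expression values of the 12 features of cyp11a1.1, cyp17a1 and cyp19a1 genes, with 1 point per array, a bar at each mean, transgenic embryos left and wild-type embryos right; f1, f2 and so on number a gene's features by signal. All cyp11a1.1 features and the first cyp17a1 feature separate the genotypes.

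Other genes of steroid hormone synthesis are given from a list that was chosen with earlier results of these data known. The feature with the highest mean stands for a gene. Of 21 partner genes measured, 2 fell, 2 rose and 17 did not pass, with a median log2 fold change of 0.18. The called share of 19% was near the 17.6% of all features. The cholesterol carrier gene star, whose product feeds the side-chain cleavage enzyme, had 8.26 and 8.33 in the transgenic arrays, against 9.86 and 9.39 in the wild-type arrays (-1.33 ± 0.20, limma adjusted p = 0.0208). It was matched through its human ortholog name. The other fall was in hsd11b1la (-1.40 ± 0.22), a relative by name of the genes whose enzymes interconvert cortisol and cortisone. The rises were in hsd17b12a, a gene of fatty acid elongation (0.94 ± 0.16), and hsd17b4, which encodes a peroxisomal beta-oxidation enzyme (0.73 ± 0.14).

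The enzyme that follows the side-chain cleavage, 3-beta-hydroxysteroid dehydrogenase, is represented by hsd3b1, whose chosen feature had 10.35 and 9.78 in the transgenic arrays, against 10.79 and 11.06 in the wild-type arrays. It did not pass (-0.86 ± 0.24, limma adjusted p = 0.0714), whereas its second feature, with 8.13 and 8.17 in the transgenic arrays against 10.21 and 10.53 in the wild-type arrays, fell 4.67-fold. There were 7 features with the human ortholog name HSD3B1, a set looked up after values were seen. Of these 6 fell and 7 separated the genotypes, with a median of -1.19. Among all features 7.28% fell and 67.6% separated the genotypes. Since the 7 share an ortholog name, several may measure the same gene. The receptor and factor genes of the steroid-making interrenal gland did not pass. The corticotropin receptor gene mc2r differed by 0.55 ± 0.36, nr5a1a, a factor gene of steroid-making cells, by 0.47 ± 0.21, and its paralog nr5a1b by -0.23 ± 0.19. The signal of mc2r was low in both genotypes.

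Over the 5 interrenal marker genes (star, nr5a1a, nr5a1b, mc2r and hsd3b1) 1 was lower and 0 higher (20%, near the 17.6% of all features). Their mean level was 8.36 and 8.07 (log2) in the transgenic arrays, against 8.34 and 8.64 in the wild-type arrays. On the linear scale their summed level was 2595 and 2023 in the transgenic arrays, against 3372 and 3691 in the wild-type arrays. This sum weighs most the genes with the highest signal, which in the wild-type arrays were hsd3b1 and star. Both are steroid synthesis genes already given above, so the sum is no separate measure of interrenal cells. Whether the number of interrenal cells had a part in the steroid results was not tested. In whole embryos fewer cells of a type and less RNA per cell cannot be told apart. Of 12 steroid receptor and glucocorticoid target genes, 2 rose and 0 fell: fkbp5, a cochaperone gene induced by glucocorticoids (1.34 ± 0.25), and klf9, another gene induced by them (1.12 ± 0.16, or 0.74 on the log2(value + 50) scale). The called share of 16.7% was near that of all features. Among their fellow targets, the chosen feature of tsc22d3 differed by -0.38 ± 0.14 without passing while 1 of its 2 features fell, and that of sgk1 by 0.32 ± 0.17 while 1 of its 3 features rose.

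**Figure D3:**
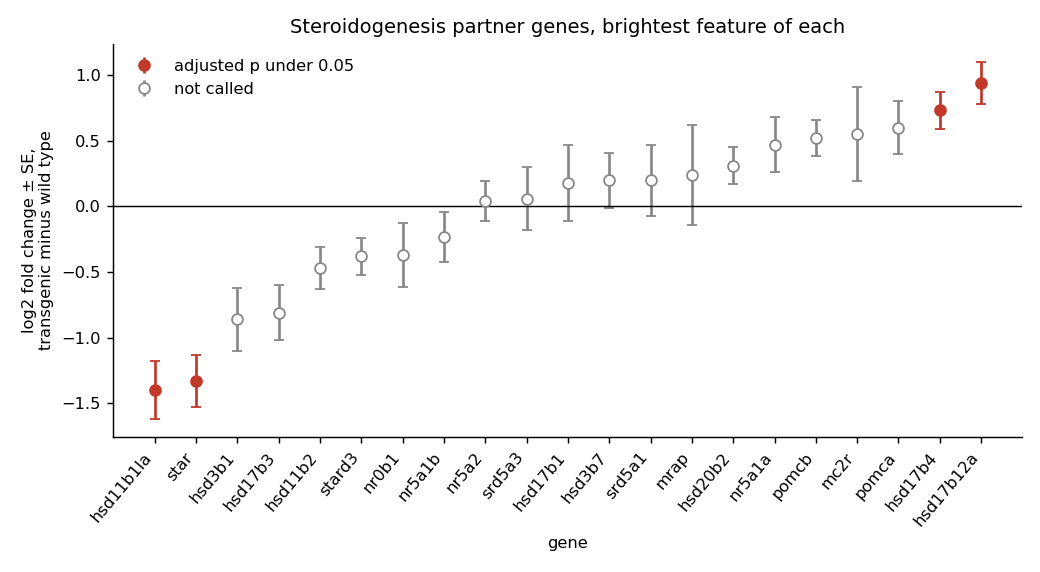
Log2 fold change ± SE (transgenic minus wild type, n = 2 arrays per genotype) of the 21 measured steroidogenesis partner genes, ordered by value, filled where limma's adjusted p was under 0.05. The genes hsd11b1la and star lie lowest, and hsd17b12a and hsd17b4 highest.

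Vitamin D is activated by P450 enzymes of the CYP2R1 and CYP27B1 kind and inactivated by CYP24A1, whose gene is a textbook target of the vitamin D receptor. All 3 CYP24A1 features rose, each by about the same amount. The first read 12.58 and 12.67 in the transgenic arrays, against 10.12 and 10.49 in the wild-type arrays (2.32 ± 0.18, 5-fold, limma adjusted p = 0.00911). The second read 12.35 and 12.18 in the transgenic arrays, against 9.57 and 9.91 in the wild-type arrays (2.52 ± 0.18). The third read 9.94 and 10.08 in the transgenic arrays, against 7.36 and 7.97 in the wild-type arrays (2.35 ± 0.24). No CYP24A1 feature had low signal in either genotype, and none of the 3 showed overlap, where 67.6% of all features showed none. Among all features 10.3% rose. Since the 3 share an ortholog name, they may measure the same gene.

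On the activating side, the zebrafish gene cyp27b1 differed by -0.11 ± 0.21 without passing, with 6.84 and 6.83 in the transgenic arrays and 6.69 and 7.19 in the wild-type arrays. Its signal was low in both genotypes, so a difference may not be detectable. A CYP2R1 feature had 5.78 and 5.52 in the transgenic arrays, against 7.54 and 6.57 in the wild-type arrays, and did not pass (-1.41 ± 0.35, limma adjusted p = 0.0553). A feature outside the rule that the gene table names cyp2r1 had 6.11 and 6.51 in the transgenic arrays, against 7.35 and 7.30 in the wild-type arrays, and fell by 1.02 (SE 0.19, adjusted p = 0.0297). The CYP2R1 and cyp2r1 features had low signal in the transgenic arrays. The vitamin D receptor gene vdra had 9.50 and 9.69 in the transgenic arrays, against 7.99 and 8.61 in the wild-type arrays, and rose by 1.30 ± 0.24 (adjusted p = 0.0315).

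Family 3 enzymes oxidise drugs and steroids, CYP3A4 being the main drug-metabolising enzyme of human liver. Of the 6 features of this family, all with that ortholog name, the 4 without a zebrafish name rose, and cyp3c3 and cyp3c4 did not pass. The one with the largest difference had 8.95 and 9.36 in the transgenic arrays, against 6.54 and 7.27 in the wild-type arrays (2.25 ± 0.30, 4.77-fold, limma adjusted p = 0.0164). Another had 7.26 and 7.38 in the transgenic arrays, against 5.55 and 5.99 in the wild-type arrays (1.55 ± 0.20, or 1.0 on the log2(value + 50) scale, which damps low signal). The next had 7.53 and 7.57 in the transgenic arrays, against 5.81 and 6.51 in the wild-type arrays (1.39 ± 0.26). These 3 had low signal in the wild-type arrays. The remaining one of the 4, with clear signal in both genotypes, had 11.57 and 11.71 in the transgenic arrays, against 10.95 and 10.82 in the wild-type arrays (0.75 ± 0.15). The genotypes did not overlap in any of the 4. Among all features 67.6% did not overlap and 10.3% rose. The gene cyp3c3 differed by -0.81 ± 0.22 (adjusted p = 0.0633) and cyp3c4 by 0.02 ± 0.25. Outside the rule, 2 features of cyp3c2 with the same ortholog name differed by -0.23 and -0.42 without passing.

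P450 genes of sterol and bile acid metabolism went both ways. CYP8B1 is a sterol hydroxylase that sets the mix of bile acids, and 2 of its 4 features rose. The first had 7.43 and 7.61 in the transgenic arrays, against 6.23 and 6.23 in the wild-type arrays (1.29 ± 0.15, limma adjusted p = 0.0128). The second had 6.03 and 5.81 in the transgenic arrays, against 4.70 and 4.81 in the wild-type arrays (1.17 ± 0.16, or 0.52 on the log2(value + 50) scale). All 4 features had low signal in the wild-type arrays, and all but the first also in the transgenic arrays. The 2 that did not pass differed by 0.34 and 0.09. Among all features 10.3% rose.

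The sterol hydroxylase CYP27A1, a mitochondrial enzyme that oxidises the cholesterol side chain, fell in 2 of 5 features, where 7.28% of all features fell. The first had 9.25 and 9.43 in the transgenic arrays, against 10.07 and 10.14 in the wild-type arrays (-0.77 ± 0.15, limma adjusted p = 0.0326). The second had 8.31 and 8.37 in the transgenic arrays, against 9.25 and 9.20 in the wild-type arrays (-0.89 ± 0.14, limma's adjusted p = 0.0215). The other 3 had low signal in both genotypes and differed by -0.79, -0.70 and -0.68 without passing. In these 3, wild-type replicate 1 stood above both transgenic arrays and above wild-type replicate 2 (7.07 against 5.20 in the widest case).

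Cholesterol 24-hydroxylases of the CYP46A1 kind remove cholesterol from the brain in mammals. Of the 4 features of family 46, that of cyp46a1.3 rose, with 9.17 and 9.10 in the transgenic arrays, against 8.55 and 8.30 in the wild-type arrays (0.71 ± 0.16, limma adjusted p = 0.0439). Its call ended under quantile normalization (0.62, adjusted p = 0.0609), under median centring and with a trend in eBayes. The feature of this family without a zebrafish name had 9.20 and 8.90 in the transgenic arrays, against 9.51 and 9.40 in the wild-type arrays, and did not pass (-0.41 ± 0.17, adjusted p = 0.158). Neither feature of family 7, the enzymes that open bile acid synthesis, passed: a CYP7A1 feature differed by 0.70 ± 0.26 and cyp7a1 by -0.38 ± 0.17. A CYP39A1 feature, of an oxysterol hydroxylase, differed by -0.39 ± 0.18 at low signal. Of 25 cholesterol synthesis genes, 1 rose and 2 fell (12% against 17.6% of all features). The rise was in srebf2, the master factor gene of the pathway (0.84 ± 0.19). The falls were in lss, the lanosterol synthase gene (-1.30 ± 0.16, at low signal in the transgenic arrays), and mvk, the mevalonate kinase gene (-0.91 ± 0.21). The call of srebf2 ended under median centring (0.74, adjusted p = 0.0502) and without wild-type replicate 1 (0.65, adjusted p = 0.0517).

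**Figure D4:**
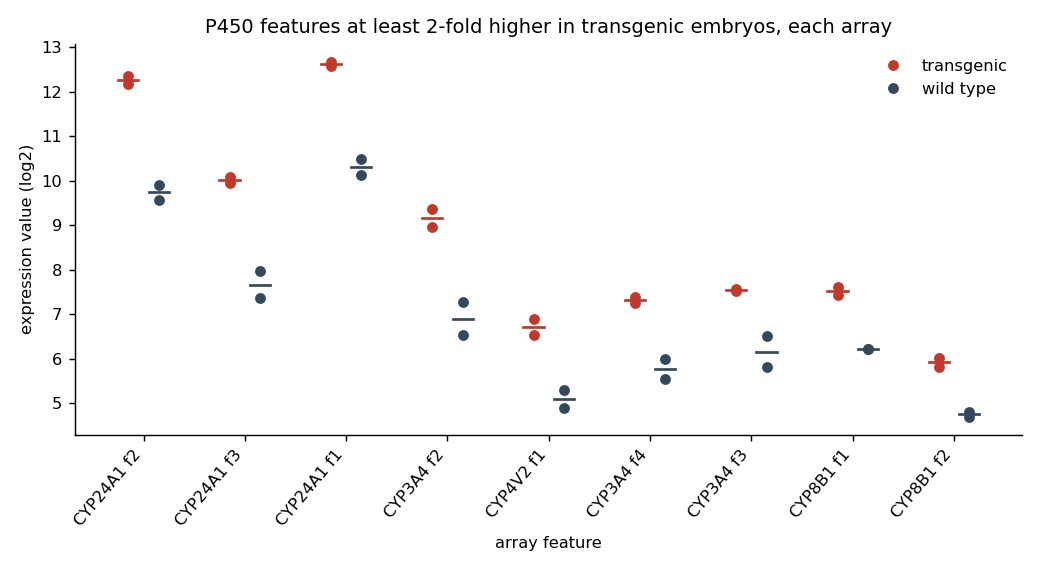
Log2 expression values of the 9 P450 features that rose at least 2-fold, ordered by fold change, with 1 point per array, a bar at each mean, transgenic embryos left and wild-type embryos right; f1, f2 and so on number the features of a name by signal. The CYP24A1 features lead. The 9 were chosen as called rises on these same arrays, so the gap between the genotypes follows largely from the choice.

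Family 1 enzymes are the classical targets of the aryl hydrocarbon receptor, which senses dioxin-like chemicals. Of 5 features 1 fell and 0 rose. The CYP1A1 feature had 8.73 and 8.80 in the transgenic arrays, against 9.47 and 9.58 in the wild-type arrays (-0.76 ± 0.14, limma adjusted p = 0.0307). The CYP1B1 feature with the highest signal had 11.82 and 11.66 in the transgenic arrays, against 12.19 and 12.35 in the wild-type arrays, and did not pass (-0.53 ± 0.15, adjusted p = 0.0775). In 4 of the 5 both transgenic arrays lay below both wild-type arrays, where 12314 of all 37176 features did so. Counted in either direction, 80% of this family did not overlap, against 67.6% of all features. The called share of 20% was near the 17.6% of all features. Outside the rule, cyp1d1 also has the human ortholog name CYP1A1. That gene had 10.95 and 10.84 in the transgenic arrays, against 10.46 and 10.11 in the wild-type arrays. It did not pass (0.61 ± 0.18, limma adjusted p = 0.0772), nor did a CYP1B1 feature outside the rule (0.13 ± 0.17). Of 10 genes of the receptor pathway, 0 rose and 3 fell (30% against 17.6% of all features): the receptor gene ahr1b (-0.82 ± 0.17), nqo1, a quinone reductase gene that the receptor can induce (-1.42 ± 0.15), and the forkhead gene foxq1b (-3.03 ± 0.15). The signal of foxq1b was low in the transgenic arrays, so the size of its fall is uncertain. The main zebrafish receptor gene ahr2 differed by 0.49 ± 0.15 without passing (limma adjusted p = 0.0854).

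Family 2, the largest, acts on foreign chemicals and on arachidonic acid. Of its 47 features 2 rose, 5 fell and 40 did not pass. The called share was 14.9%, against 17.6% of all features (4.26% higher and 10.6% lower, against 10.3% and 7.28%). None of the 7 called features differed 2-fold, and the median log2 fold change of the family was -0.01. The largest call was cyp2aa3, with 12.98 and 12.91 in the transgenic arrays, against 13.87 and 13.98 in the wild-type arrays (-0.98 ± 0.14, limma adjusted p = 0.019). The gene cyp2ad6 had 6.28 and 6.27 in the transgenic arrays, against 7.31 and 7.05 in the wild-type arrays (-0.90 ± 0.16), with low signal in the transgenic arrays. The genotypes did not overlap in either gene.

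The gene cyp2p7 had 7.05 and 7.11 in the transgenic arrays, against 7.91 and 7.75 in the wild-type arrays (-0.75 ± 0.14). Of the 2 features of cyp2p8, 1 had 8.36 and 8.26 in the transgenic arrays, against 9.12 and 8.98 in the wild-type arrays (-0.74 ± 0.15), while the other differed by 0.18 ± 0.18 without passing. The authors' annotation gives these genes the human ortholog CYP2J2, an enzyme that makes epoxides of arachidonic acid. Another 6 features have that ortholog name only, of which 1 fell (-0.65 ± 0.15, limma adjusted p = 0.0496) and 1 rose (0.78 ± 0.18, adjusted p = 0.045). The CYP2J2 feature that rose missed the threshold under quantile normalization (adjusted p = 0.0556) and under median centring (adjusted p = 0.0598). The CYP2J2 feature that fell missed it with a robust prior, with the replicate number as a block (adjusted p = 0.0592) and without either wild-type array, and cyp2p7 with a trend in eBayes (adjusted p = 0.0695). The features that did not pass ranged from -1.41, the CYP2R1 feature, to 1.18, a feature with the symbol CYP2W1 (9 of 10).

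Many family 2 genes lie side by side in the genome. In the order of the RefSeq genes of the assembly GRCz12tu, a run of 11 neighbouring cyp genes from cyp2n13 to cyp2j20 held 9 genes with a P450 feature. Of these 9, cyp2ad6, cyp2p7 and cyp2p8 fell and 0 rose, where 7.28% of all features fell and 10.3% rose. The genes cyp2p7 and cyp2p8 are direct neighbours. Next to cyp2j20, the gene cyp2p10 differed by 0.54 ± 0.15 (limma adjusted p = 0.0687) and so did not pass. Its values were 10.19 and 10.22 in the transgenic arrays and 9.76 and 9.56 in the wild-type arrays. A run of 8 cyp2k genes held 3 such genes, cyp2k19, cyp2k17 and cyp2k6, and none passed. Features outside the rule cover more genes of this run. There cyp2k16 fell (-0.64), 1 of 4 cyp2k21 features rose (1.18, at low signal) and cyp2k18 did not pass. Another run of 5 held the fish subfamily genes cyp2aa8, cyp2aa9, cyp2aa1, cyp2aa2 and cyp2aa3, of which cyp2aa3 fell. With cyp2aa4, all 6 features of this subfamily had negative log2 fold changes, from -0.98 to -0.01. Of the 6, 4 did not overlap between genotypes (66.7%, near the 67.6% of all features) and 1 was called (16.7%, near the 17.6% of all features). Near-identical copies in such runs may share signal, so which copy a feature measures is uncertain.

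**Figure D5:**
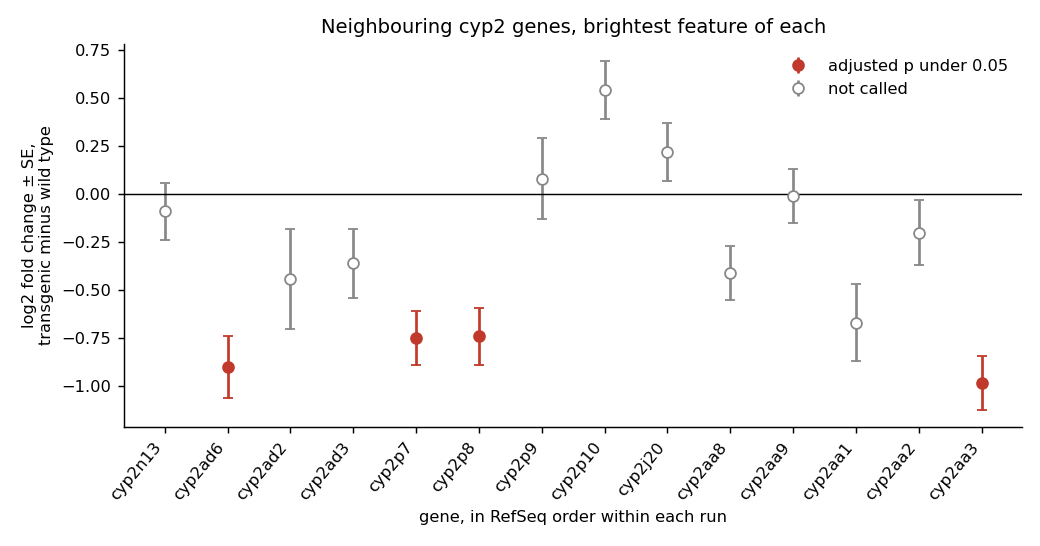
Log2 fold change ± SE (transgenic minus wild type, n = 2 arrays per genotype) of the measured genes in the runs of neighbouring cyp2 genes with the most P450 features, in RefSeq order, filled where limma's adjusted p was under 0.05. In the first run 3 of 9 genes fell, and in the other 1 of 5, where 7.28% of all features fell.

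Family 4 enzymes hydroxylate the ends of fatty acids. The called share of their features was 12.5%, against 17.6% of all features. Of 8 features 1 rose, a CYP4V2 feature with 6.89 and 6.54 in the transgenic arrays, against 5.31 and 4.89 in the wild-type arrays (1.62 ± 0.22, 3.06-fold, limma adjusted p = 0.0173), at low signal in both genotypes. On the log2(value + 50) scale it rose by 0.88. The 2 other features with that name and both features of cyp4v2a did not pass. The gene cyp4t8 narrowly missed the threshold in the feature with the higher signal, at 11.99 and 11.90 in the transgenic arrays, against 12.59 and 12.49 in the wild-type arrays (-0.59 ± 0.14, limma's adjusted p = 0.0503). A feature with the human ortholog name CYP20A1, an orphan enzyme gene, had 11.77 and 11.72 in the transgenic arrays. It had 12.16 and 11.93 in the wild-type arrays and did not pass (-0.30 ± 0.15). The feature named cyp20a1 had 11.62 and 11.51 in the transgenic arrays, against 11.60 and 11.43 in the wild-type arrays. It did not pass either (0.05 ± 0.15). Of the P450 genes whose names lack the cyp stem, the thromboxane synthase gene tbxas1 had 9.41 and 9.29 in the transgenic arrays, against 10.27 and 10.24 in the wild-type arrays, and fell by 0.90 (SE 0.14, adjusted p = 0.0218). The prostacyclin synthase gene ptgis differed by 0.29 ± 0.22 and did not pass.

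The P450 enzymes depend on partner proteins, which were compared in the same fit. Of 21 genes of electron transfer and haem supply, 2 rose and 2 fell (19%, near the 17.6% of all features). The cytochrome b5 reductase gene cyb5r1 rose by 1.35 ± 0.25 while its relatives cyb5r2 (-1.10 ± 0.16) and cyb5r4 (-0.68 ± 0.14) fell, and the haem oxygenase gene hmox2a rose by 0.66 ± 0.14. The chosen feature of the P450 reductase gene por differed by 0.18 ± 0.15 without passing (limma adjusted p = 0.432), while 1 of its 3 features rose. Of 14 nuclear receptor genes that respond to foreign chemicals, lipids and vitamin D, 2 rose and 3 fell (35.7%). Besides vdra these included the retinoid partner receptor genes rxrba (0.78 ± 0.16) and rxrgb (-1.27 ± 0.14) and the fatty acid sensor gene pparab (-1.93 ± 0.14). Signal was low for pparab in the transgenic arrays and for cyb5r1 in the wild-type arrays, so the size of these differences is uncertain.

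Of 25 conjugating enzyme genes 1 rose and 2 fell: mgst2, a microsomal glutathione transferase gene (0.70 ± 0.14), and the sulfotransferase genes sult2st3 (-1.39 ± 0.23, or -0.92 on the log2(value + 50) scale) and sult4a1 (-0.57 ± 0.14). The called share of 12% was below the 17.6% of all features. Of 17 eicosanoid genes 1 rose and 3 fell (23.5%). The rise was in ptgs2b, a cyclooxygenase gene (4.31 ± 0.14), and the falls were in alox5a, a lipoxygenase gene (-1.85 ± 0.19), and the epoxide hydrolase genes ephx1 (-1.02 ± 0.14) and ephx2 (-0.72 ± 0.15). Of 9 retinoid and vitamin D partner genes, stra6, a receptor gene for retinol uptake, rose (0.61 ± 0.14) and 0 fell (11.1%). The calls of hmox2a (0.57, limma adjusted p = 0.0557) and stra6 (0.52, adjusted p = 0.0628) ended under median centring, and that of sult4a1 with the replicate number as a block (adjusted p = 0.0621).

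Markers of organs that express P450 genes were set beside these results. Of 7 liver markers 0 passed in limma, with a mean level of 12.03 and 12.11 in the transgenic arrays and 12.11 and 12.01 in the wild-type arrays. Of 6 yolk and gut lipoprotein markers 0 passed, with mean levels of 12.95 and 12.96 in the transgenic arrays and 12.98 and 12.87 in the wild-type arrays. Neither the 1 measured pronephros marker, cdh17, nor any of 4 neuronal markers passed, where 17.6% of all features did. At an unadjusted p under 0.05 these 4 lists held 1, 1, 0 and 0 genes, the fibrinogen gene fgb and the apolipoprotein gene apoa4b.1.

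Another 39 features are P450 features by human ortholog or updated name but carry another kind of zebrafish symbol, such as a locus number, and so lie outside the rule. Of these 1 rose and 10 fell, and 8 of the falls were at least 2-fold, where 1231 of all 37176 features fell that far. The called share was 28.2%, with 2.56% higher and 25.6% lower, against 17.6%, 10.3% and 7.28% of all features. Beside cyp11a1.2 and cyp2r1, the falls were in 3 of 5 features of cyp2ae1, in cyp2k16, in 1 of 2 features of cyp27a1.2, in cyp39a1, and in a feature each with the human ortholog names CYP27A1 and CYP2C18. The 3 cyp2ae1 features that fell had log2 fold changes of -1.33, -1.94 and -1.46. Those of cyp27a1.2 and cyp39a1 were -1.39 and -1.20, and that of cyp2k16 was -0.64. The CYP27A1 and CYP2C18 features stood at -1.20 and -1.37. Of the 11 called features outside the rule, 4 had low signal in both genotypes and another 3 in 1 genotype. Both features with the human ortholog name CYP21A2, a further enzyme of cortisol synthesis, missed the threshold (-0.21 and -0.71, limma adjusted p = 0.429 and 0.0518). The rise was in 1 of 4 features of cyp2k21 (1.18 ± 0.23), at low signal.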

How the data were processed

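Whole-embryo RNA was labelled with Cy3 and hybridised to 1-colour NimbleGen arrays, per the labels. The deposited values are log2 expression values. The base was inferred from their upper limit, which lies at that of a 16-bit scanner. How the arrays were scanned, summarised and normalized is not stated in the labels or files used here. The authors' deposited table gives log2 fold changes, which equalled those computed here to within 2.8e-08, and q-values, whose test is not stated.

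Values were used as deposited, with no filter and no further normalization. All 37176 features were fitted with limma 3.58.1 (R 4.3.3; lmFit and eBayes) on 2 transgenic and 2 wild-type arrays without covariates, with Benjamini-Hochberg adjustment over all features. The fit was tested on simulated data. Symbols were updated through RefSeq (GRCz12tu) names. Scan dates and slides were not analysed here, so no batch was examined.

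The P450 features and the gene lists were chosen with earlier results of these data known. Named are all features of families 11, 17 and 19, every other called P450 gene, the feature with the highest mean of each family, tbxas1 and ptgis, and up to 4 called genes per list with star, por and ahr2. Of the called features, 1 is not reported here. Other genes named without a call, the features outside the rule, and the matching of list genes by human ortholog name were chosen after values were seen. Alternatives were another normalization, filters on low values, other eBayes priors, log2(value + 50), the replicate number as a block, leaving out each array, an adjusted p of 0.10 and the authors' q-values.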

Additional observations from a re-analysis of the deposited data

How the results depend on the processing

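With 13 P450 features higher and 13 lower, the count of higher features was 7 without features below the median level and 23 with the authors' deposited q-value. The lower count was 22 at an adjusted p of 0.10 and 41 with the deposited q-value, by which 67.7% of all features pass. Of the 5 steroid family falls, 2 were still tested and called without features below the 25th percentile and 1 without those below the median, since these filters remove the other features. Leaving out 1 array at a time gave 0 to 19 higher, 0 to 21 lower and 0 to 7 steroid family falls. The 0 came without either transgenic array, when no call was left. In these fits 0 of the 26 called features changed sign. The fits reuse the other arrays that gave the calls, so a kept sign is no separate support. A genotype left with 1 array is assumed to vary like the other. Of the 26 calls, 23 were kept under quantile normalization and under median centring, 24 with a trend, 25 with a robust prior and 26 with log2(value + 50).

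The labels do not say that a replicate number links the genotypes, and with 2 numbers the correlation of deviations (0.206) does not settle it. With the replicate number as a block, 15 features were higher, 14 lower and 5 steroid family features lower, and 25 of the 26 calls were kept.

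Sign changes were limited to features that did not pass. The second cyp17a1 feature (0.04) was -0.06 under quantile normalization, -0.06 under median centring and -0.01 with log2(value + 50). Leaving out 1 array at a time, it ranged from -0.66 to 0.73, the third cyp17a1 feature from -1.00 to 0.42 and the fourth from -1.80 to 0.05, with the ends set by the 2 wild-type arrays. The cyp19a1a features ranged from -0.15 to 0.37 and from -0.10 to 0.31. The cause of these changes was not tested. Low signal limits 44 of the 103 features in both genotypes.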
